A study of Mus musculus with 221 samples.

Results

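The genes followed here were 10 enzymes of glycolysis, Hk2, Gpi1, Pfkl, Aldoa, Tpi1, Gapdh, Pgk1, Eno1, Pkm and Ldha, chosen by symbol from a full-length single-cell transcriptome of mouse hemogenic endothelium (HE). They were 10 of 78317 genes and 95 of 278369 transcripts, with 11 transcripts for Pkm. HE is the endothelium that gives rise to blood, and it was taken from the aorta-gonad-mesonephros region (AGM) and the yolk sac (YS) of embryos carrying a Gfi1-GFP and a Runx1b-RFP reporter, from C57BL/6JOlaHsd males mated to CD-1 females. AGM cells were sorted at E9.5 and E10.5 as RUNX1+ KIT- CDH5+ CD41- CD45-, and YS cells at E9, E9.5 and E10.5 as RUNX1+ KIT+ CD31+ CD41- CD45-, each with or without GFI1, so the gate on KIT differed between the tissues.

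The labels put the cells into 9 clusters. AGM_3 and AGM_4 were early and late AGM HE (29 and 20 cells used), YS_m1 and YS_m2 early and late arterial YS HE (23 and 29 cells), and YS_b2 and YS_b3 early and late HE of the YS plexus (25 and 24 cells). AGM_5 was labelled HE-Hb (21 cells), YS_p1 early YS progenitors skewed to LMP (17 cells) and YS_p2 early YS progenitors skewed to EMP (20 cells). The cDNA of single cells had been made earlier by Smart-seq2 and was sequenced again in 3 nanopore runs. Of 221 cells, 208 had a total of at least 17595 estimated counts and were used. Each cell was its own sample and no embryo was named, so each cluster was treated as 1 sample. There is therefore no test between clusters, intervals are exact 95% intervals that cover counting error only, and the spread is that over the 3 runs, which held different cells.

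Glycolysis splits glucose into pyruvate, and lactate dehydrogenase turns pyruvate into lactate. Its first steps spend ATP on trapping and splitting the sugar, and its later steps return ATP and NADH. The last step is made by pyruvate kinase, whose gene Pkm holds a pair of mutually exclusive exons. The M1 form is known from differentiated tissues such as muscle, and the M2 form from embryonic and dividing cells.

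Among the internal exons of their transcripts, the forms differ in this exon alone. Both exons are shown, with capitals at the 64 of 167 positions that differ. The first and last exons were not compared. Each was read from the GENCODE M21 transcripts (GRCm38, forward strand), the M1 exon at chr9:59675029-59675195 in Pkm-202 and the M2 exon at chr9:59675568-59675734 in Pkm-201.
M1 exon: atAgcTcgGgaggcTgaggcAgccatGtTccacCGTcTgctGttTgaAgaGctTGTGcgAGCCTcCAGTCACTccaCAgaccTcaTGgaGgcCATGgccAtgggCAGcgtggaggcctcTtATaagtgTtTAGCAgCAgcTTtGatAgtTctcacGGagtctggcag
M2 exon: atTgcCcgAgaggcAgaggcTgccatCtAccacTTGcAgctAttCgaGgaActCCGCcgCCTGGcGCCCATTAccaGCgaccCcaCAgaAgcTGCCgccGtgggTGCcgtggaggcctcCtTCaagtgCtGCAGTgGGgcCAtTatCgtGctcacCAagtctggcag
No other annotated Pkm transcript held either exon whole. Reads that miss this stretch can be given to either transcript, and all 7 near-identical copies of Pkm elsewhere in the genome matched the M2 exon better (147 to 163 of its 167 bases) than the M1 exon (97 to 110 bases).

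Several measured properties moved with the tissue. The median total was 55908 to 65347 estimated counts per cell in the 3 AGM clusters and 30858 to 36710 in the 6 YS clusters. The transcripts that received counts had a mean annotated length of 1507 bases in AGM HE, 1169 bases in arterial YS HE and 1162 bases in plexus YS HE. The AGM and YS cells also came from different cDNA projects, apart from 1 cell of YS_m1 that came from an AGM project, so the tissue and the project cannot be told apart in any AGM against YS value below. The part of depth and length in these values was not tested. Within the YS project, 2 cells labelled arterial YS HE, 1 of YS_m1 and 1 of YS_m2, carried a library name of the AGM, which goes against their label. Without these 3 cells the summed log2 ratio of AGM to arterial YS HE given below was still -0.40, and the difference in the M1 share of Pkm was -10.67 in place of -10.05 percentage points. Embryonic age also differed between the YS populations, with E10.5 cells making up 35 of 52 in arterial YS HE, 20 of 49 in plexus YS HE, 15 of 17 in YS_p1 and 6 of 20 in YS_p2. An embryonic day was given for 1 cell of AGM_3 (E10.5) and for no other AGM cell. No AGM against YS value below could therefore be matched for age. The labels were checked against 8 fixed marker lists. Levels are given as CPM, estimated counts scaled to a total of 1000000. Endothelial markers summed to 1418 CPM in AGM HE, 1182 in arterial and 1232 in plexus YS HE, and were lowest in AGM_5 (252 CPM) and YS_p2 (270 CPM). Blood progenitor markers summed highest in AGM_5 (1090 CPM), YS_p1 (985 CPM) and YS_p2 (829 CPM). Most of each sum was Coro1a (640, 780 and 666 CPM). Ptprc, Myb and Gata1 were also highest in 1 of these clusters, while Spi1 was highest in AGM_4 (254 CPM) and Itga2b in YS_b2 (51.7 CPM). Hemogenic markers (Runx1, Gfi1, Mycn, Kit) ran from 108 CPM in YS_b2 to 724 CPM in AGM_4. Of these, Kit RNA went against the sorting gate, at 166 CPM in AGM HE against 101 in arterial and 65.8 CPM in plexus YS HE. Runx1 was at 1.18 CPM in YS_b2, although these cells were sorted as RUNX1+. Macrophage markers reached at most 16 CPM, megakaryocyte markers 52.9 CPM and yolk sac endoderm markers 25.9 CPM in any cluster. Erythroid markers stood at 364 CPM in AGM_3 against 3.65 to 68.2 CPM elsewhere, while Dlk1 of the mesenchymal list stood at 172 CPM in AGM_5, where the other 5 genes of that list were at 0, against 0 to 16.4 CPM elsewhere.

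Near-identical copies, most of them pseudogenes, took reads of 8 of the 10 enzymes. Gapdh had 190 copies in the annotation with at least 90% identity over at least 50% of their length, Ldha had 9, Eno1 and Pkm 7 each, Aldoa 6, Pgk1 4, Tpi1 2 and Gpi1 1, while none was found for Hk2 or Pfkl. The copies took 68.8% of the summed counts of Gapdh and its copies in AGM HE, and 84.2% in arterial and 84.3% in plexus YS HE. For Pgk1 the share of the copies was 24.2% in AGM HE, 78.8% in arterial and 84.0% in plexus YS HE. The split of reads between a gene and its copies thus differed between the tissues, and each level is given for the gene and, where it matters, for the gene with its copies.

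The summed level of the 10 enzymes was lowest in AGM HE and highest in the progenitors. It was 3329 CPM (95% interval 3248 to 3411) in AGM_3, 3888 CPM (3785 to 3993) in AGM_4 and 4810 CPM (4700 to 4922) in AGM_5. In the arterial series it was 4540 CPM (4397 to 4686) in YS_m1, 4797 CPM (4666 to 4930) in YS_m2 and 5636 CPM (5455 to 5820) in YS_p1. In the plexus series it was 4644 CPM (4500 to 4791) in YS_b2, 4899 CPM (4749 to 5053) in YS_b3 and 6083 CPM (5905 to 6264) in YS_p2. The order from early HE through late HE to the third cluster was the same in the 3 series, and YS_p2 was the highest cluster of all. When the clusters were ranked by this sum, however, every one of the 8 neighbouring pairs overlapped in the values of single runs.

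**Figure D1:**
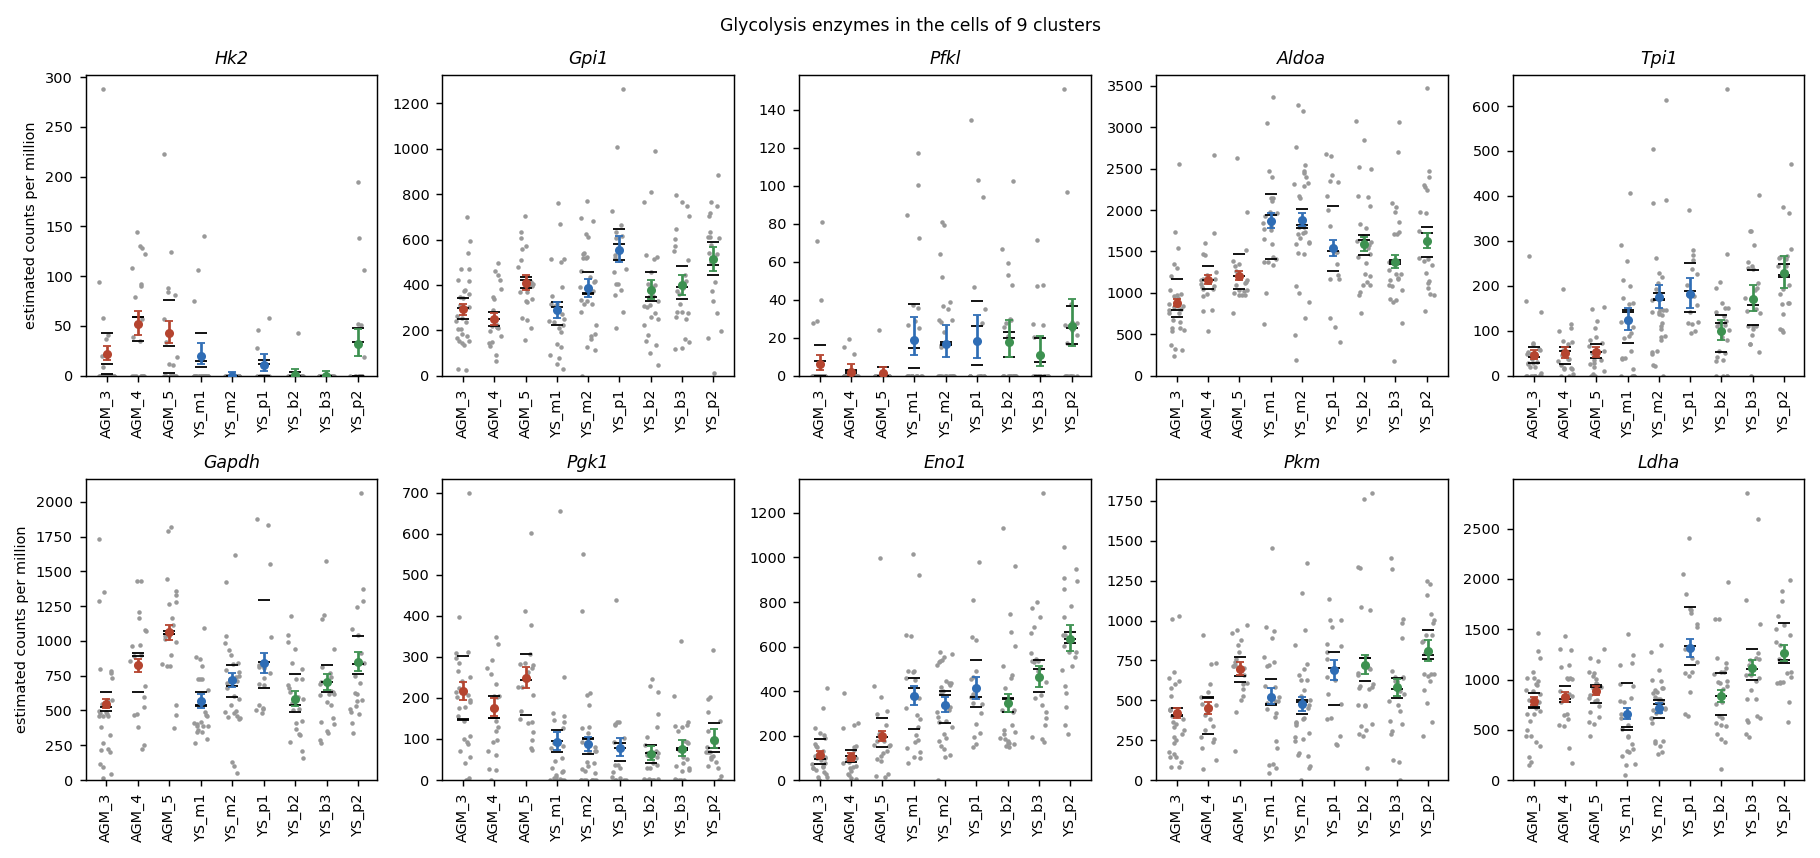
Level of each glycolysis enzyme in CPM (y axis) in 9 clusters (x axis). Grey dots are cells, coloured points the cluster level with its 95% counting interval (red AGM, blue arterial YS series, green plexus YS series), and black dashes the 3 runs. Pfkl, Tpi1, Eno1 and, with totals as the scale and no copies added, Aldoa were higher in all 6 YS clusters than in all 3 AGM clusters, and Pgk1 was lower as a gene and higher with its copies.

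The first question was whether HE of the 3 sites differed in these enzymes. Pooled over early and late cells, the sum was 3562 CPM (3498 to 3627) in AGM HE, 4684 CPM (4587 to 4782) in arterial YS HE and 4769 CPM (4665 to 4875) in plexus YS HE. AGM HE was lower than arterial YS HE by a log2 ratio of -0.40 (-0.44 to -0.35, single runs -0.48, -0.24 and -0.40) and lower than plexus YS HE by -0.42 (-0.46 to -0.38, runs -0.37, -0.54 and -0.38). The sum weighs each enzyme by its level, so Aldoa, the highest of the members in every cluster, weighs most. Aldoa alone was at -0.92 against arterial and -0.58 against plexus YS HE. Hk2, Gapdh and Pgk1 were above 0 in both comparisons, and Ldha was above 0 against arterial YS HE. A sum without Aldoa was not computed. The YS populations lay 0.03 apart in the sum, with single runs from -0.11 to 0.29. The sum also differed between days within the YS. In plexus YS HE it was 5379 CPM at E9, 4656 at E9.5 and 4490 CPM at E10.5. In arterial YS HE it was 5120 CPM at E9.5 and 4519 CPM at E10.5. The part of age in the AGM ratios was not tested. With the copies added, the sums were 6165, 10188 and 10442 CPM and the AGM ratios -0.73 and -0.76.

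Member by member, a call was a ratio beyond 1.5-fold in a gene with at least 20 CPM on average. Between AGM HE and arterial YS HE, 2 of 9 measured enzymes were higher in AGM HE (34.4% of 6170 genes) and 3 were lower (24.6% of genes). Between AGM HE and plexus YS HE, 1 of 8 was higher (35.9% of 6156 genes) and 3 were lower (26.2%). Between plexus and arterial YS HE, 0 of 8 were higher (12.7% of 5463 genes) and 0 of 8 lower (12.8%), but among E10.5 cells alone Pkm passed the limit. The members' median log2 ratio was -0.20 against arterial and -0.54 against plexus YS HE, beside 0.09 and 0.10 over all genes. With DESeq2 size factors in place of totals, the median of all genes moved by 0.22 and 0.24 in these comparisons, and with TMM factors by -0.09 and -0.12. Among the members only Gapdh changed its direction between these scalings.

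Hexokinase 2 (Hk2), which traps glucose in the cell as its phosphate, was higher in AGM HE. Hk2 was at 22.2 CPM in AGM_3, 51.8 in AGM_4, 43.1 in AGM_5, 20.2 in YS_m1, 0 in YS_m2, 10.7 in YS_p1, 1.18 in YS_b2, 0 in YS_b3 and 31.4 CPM in YS_p2. At these levels 18 of 49 AGM HE cells, 3 of 52 arterial YS HE cells and 1 of 49 plexus YS HE cells held a count. These numbers of cells are not adjusted for depth, and the median total was 59311 in AGM HE against 34484 and 33297 in the YS populations. The log2 ratio to arterial YS HE was 1.95 (1.21 to 2.78), with 1.31 in run 1 and 0.61 in run 2, and it was 3.18 without cell 17 of YS_m1, which held 58.8% of the arterial counts. Plexus YS HE held 1 count in all, 0.598 CPM (0.0151 to 3.33), which gave a log2 ratio of 5.85 with an interval of 3.35 to 11.17. The level of 0 in YS_m2 and YS_b3 allows up to 2.82 and 3.65 CPM, the value of 3 counts.

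Glucose-6-phosphate isomerase (Gpi1), which turns that phosphate into its fructose form, was lower in AGM HE by less than 1.5-fold. It stood at 274 CPM (256 to 292) in AGM HE, 342 CPM (316 to 370) in arterial and 389 CPM (360 to 420) in plexus YS HE, log2 ratios of -0.32 and -0.51. Against plexus YS HE the ratio passed the limit with its copy added (-0.66) and with TMM factors (-0.63). The liver form of phosphofructokinase (Pfkl), which commits the sugar to the pathway, was close to the floor of detection. Pfkl had 4.51 CPM in AGM HE, 17.8 in arterial and 14.4 in plexus YS HE, from 15, 34 and 24 counts, and fell under the 20 CPM limit. Its 6 YS clusters (11 to 25.9 CPM) all lay above its 3 AGM clusters (1.33 to 6.19 CPM), but single runs of both tissues included 0.

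Aldolase A (Aldoa), which splits the sugar, and triosephosphate isomerase (Tpi1), which interconverts the products, were both lower in AGM HE. Aldoa stood at 878 CPM in AGM_3, 1158 in AGM_4, 1210 in AGM_5, 1873 in YS_m1, 1886 in YS_m2, 1538 in YS_p1, 1593 in YS_b2, 1375 in YS_b3 and 1631 CPM in YS_p2. Over cells, the lowest, median and highest Aldoa levels were 233, 979 and 2669 CPM in AGM HE, 191, 1784 and 3363 CPM in arterial YS HE, and 183, 1431 and 3081 CPM in plexus YS HE. The clusters did not overlap between the tissues, while the cells did, and with DESeq2 size factors or with the copies added the clusters overlapped too. The log2 ratio was -0.92 (-0.99 to -0.85, runs -0.76, -0.78 and -1.11) against arterial YS HE and -0.58 (-0.65 to -0.50, runs -0.32, -0.69 and -0.72) against plexus YS HE, the second just inside the 1.5-fold limit and past it without cell 19 of YS_b3 (-0.62) and with TMM factors (-0.70). With the Aldoa copies the ratios were -0.71 and -0.38.

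Tpi1 showed a larger difference, with no share of copies above 0.635% in any cluster. It was at 46.1 CPM in AGM_3, 51.2 in AGM_4, 51.8 in AGM_5, 124 in YS_m1, 175 in YS_m2, 183 in YS_p1, 99.9 in YS_b2, 172 in YS_b3 and 228 CPM in YS_p2. The 3 AGM clusters lay together, and the lowest YS cluster was above them, also with DESeq2 size factors. Against arterial YS HE the log2 ratio was -1.66 (-1.94 to -1.37), with single runs at -1.74, -1.62 and -1.65. Against plexus YS HE it was -1.49 (-1.78 to -1.19), with runs at -1.84, -1.65 and -1.06.

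Of the enzymes of the second phase, Gapdh, which reduces NAD while oxidising the triose, was alike between the sites as a gene and lower in AGM HE with its copies. The gene itself was at 664 CPM (636 to 692) in AGM HE, 649 CPM (614 to 686) in arterial and 644 CPM (606 to 684) in plexus YS HE, log2 ratios of 0.03 (-0.07 to 0.13) and 0.04 (-0.06 to 0.15), both of which turned negative with TMM factors (-0.06 and -0.08). The copies stood at 1466, 3471 and 3445 CPM, and gene and copies together gave -0.95 (-0.999 to -0.91) and -0.94 (-0.99 to -0.89).

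Phosphoglycerate kinase 1 (Pgk1), which makes the first ATP of the pathway, turned its direction with the copies. As a gene it was at 216 CPM in AGM_3, 177 in AGM_4, 248 in AGM_5, 92.6 in YS_m1, 86.7 in YS_m2, 77.9 in YS_p1, 62.9 in YS_b2, 75.8 in YS_b3 and 98.6 CPM in YS_p2. All AGM clusters lay above all YS clusters, and with the copies added all lay below them. The log2 ratio of AGM HE was 1.16 (0.92 to 1.41, runs 0.45, 0.58 and 1.99) against arterial and 1.53 (1.24 to 1.82, runs 1.38, 0.89 and 1.84) against plexus YS HE. Its copies stood at 63.7 CPM in AGM HE, 332 in arterial and 363 in plexus YS HE, and with them the ratios were -0.68 (-0.82 to -0.54) and -0.71 (-0.86 to -0.57). The higher Pgk1 level in AGM HE therefore held for reads given to Pgk1 itself and not for the family of near-identical sequences.

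Enolase 1 (Eno1), which makes phosphoenolpyruvate, was lower in AGM HE with and without copies. Eno1 was at 114 CPM in AGM_3, 104 in AGM_4, 198 in AGM_5, 377 in YS_m1, 338 in YS_m2, 412 in YS_p1, 346 in YS_b2, 464 in YS_b3 and 635 CPM in YS_p2. The log2 ratio was -1.69 (-1.88 to -1.51, runs -1.01, -1.66 and -2.39) against arterial and -1.88 (-2.07 to -1.70, runs -1.38, -2.13 and -2.22) against plexus YS HE. The copies held 88.5% of the family's counts in AGM HE and 77.6% and 76.6% in the YS populations, and with them the ratios were -0.74 and -0.86.

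Pyruvate kinase (Pkm) was at 433 CPM (411 to 455) in AGM HE, 497 CPM (466 to 530) in arterial YS HE and 653 CPM (615 to 693) in plexus YS HE. Against plexus YS HE its log2 ratio was -0.60 (-0.71 to -0.48, runs -0.74, -0.42 and -0.61), a call that was lost with DESeq2 size factors (-0.42) and without cell 2 of YS_b2 (-0.54). Against arterial YS HE it was -0.20. With the copies of Pkm the ratios were -0.88 (-0.98 to -0.78) against arterial and -1.20 (-1.30 to -1.10) against plexus YS HE.

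Lactate dehydrogenase A (Ldha), which turns pyruvate into lactate, differed by less than 1.5-fold between the 3 HE populations. It stood at 801 CPM (771 to 832) in AGM HE, 692 CPM (655 to 730) in arterial and 974 CPM (928 to 1023) in plexus YS HE. Few reads went to its copies (1.20% to 3.41% of the family). Its ratio of plexus to arterial YS HE, 0.49 (0.39 to 0.60, runs 0.10, 0.89 and 0.54), stood beside 0.39 (0.27 to 0.52, runs 0.23, 0.44 and 0.54) for Pkm. Aldoa went the other way at -0.34 (-0.41 to -0.27, runs -0.44, -0.09 and -0.39), and so did Pgk1 at -0.37 (-0.72 to -0.01) as a gene, which came to 0.04 with its copies. Among E10.5 cells alone, Pkm was at 759.5 CPM (701 to 821) in plexus YS HE (20 cells) and 433 CPM (399 to 470) in arterial YS HE (35 cells), a log2 ratio of 0.81 (0.65 to 0.98) past the limit. Ldha was then at 0.46 (0.32 to 0.60) and Tpi1 at -0.57 (-0.96 to -0.18), both within it.

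**Figure D2:**
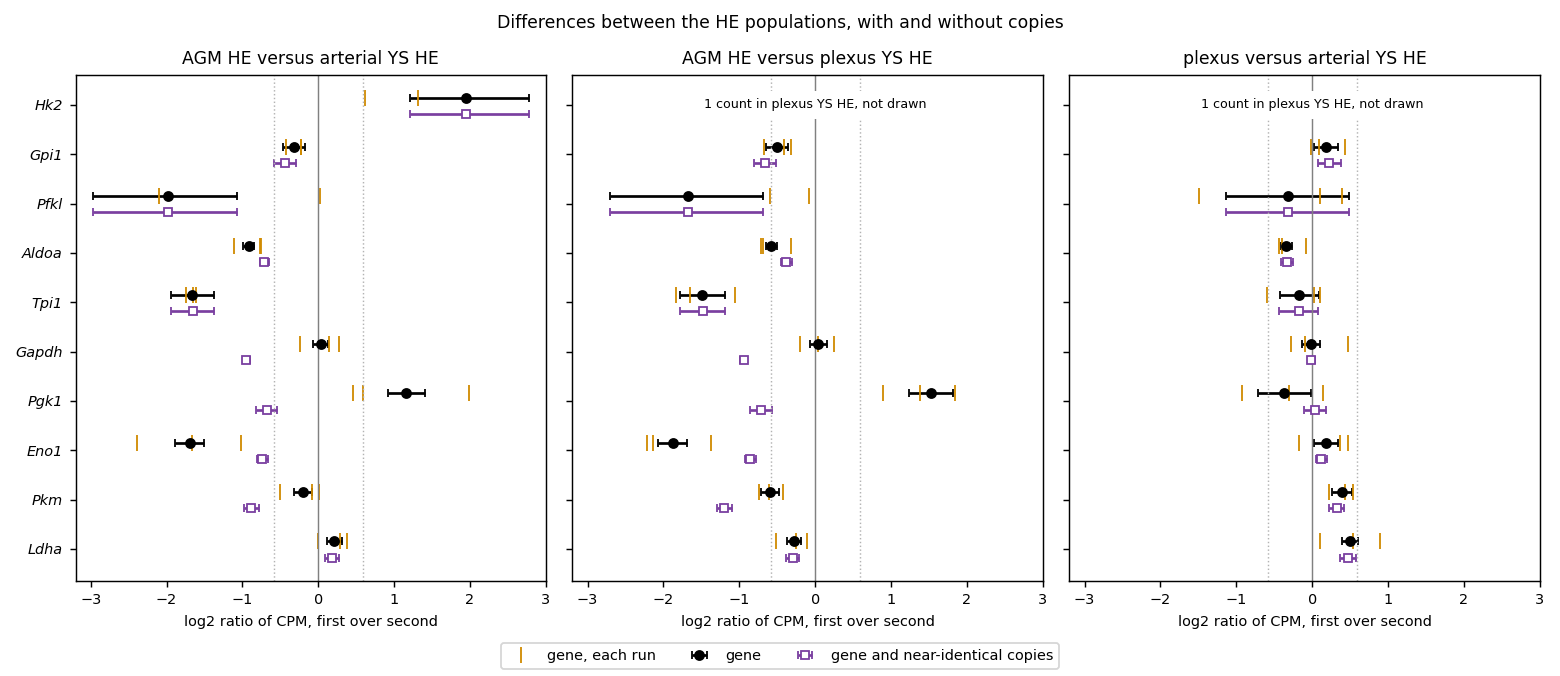
Log2 ratio of CPM between HE populations (x axis) for each enzyme (y axis), with the gene in black, the gene with its near-identical copies in purple (bars, 95% counting intervals) and single runs as orange ticks. Dotted lines mark 1.5-fold. Pgk1 moved from 1.16 to -0.68 against arterial YS HE when copies were added, while Tpi1 stayed at -1.66.

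A second question was how the enzymes stood along the path from early HE to late HE and on to the third cluster of each series. In AGM HE, 2 of 9 enzymes were higher late than early (14.7% of 6500 genes) and 0 lower (19.4%). In arterial YS HE, 0 of 8 were higher (16.5% of 5475 genes) and 0 lower (17.7%), and in plexus YS HE, 1 of 8 was higher (22.7% of 5438 genes) and 0 lower (18.7%). The summed log2 ratio, late over early, was 0.22 (0.17 to 0.28) in AGM HE, 0.08 (0.02 to 0.14) in arterial and 0.08 (0.01 to 0.14) in plexus YS HE. Single runs went from -0.03 to 0.46 in AGM HE and from -0.18 to 0.40 in arterial YS HE, on both sides of 0. In plexus YS HE they went from 0.05 to 0.14.

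The AGM enzymes past the limit were Hk2, with a late over early ratio of 1.22 (0.66 to 1.80, runs 2 and 3 at 2.35 and 0.47), and Gapdh, with 0.59 (0.47 to 0.71, runs 0.01, 0.81 and 0.84). Without cell 24 of AGM_3 the Hk2 ratio was 2.20. The Gapdh ratio was 0.49 without cell 15 of AGM_4 and 0.33 with the copies. In plexus YS HE, Tpi1 was at 0.78 (0.38 to 1.19), but the runs lay at 0.998, -0.27 and 1.56. In arterial YS HE, Tpi1 was at 0.49 and passed the limit without cell 5 of YS_m1 (0.74). Hk2, under the 20 CPM limit, had 17 counts early, most of them in cell 17 of YS_m1, and 0 late. Its early level was 7.18-fold that of 3 counts in YS_m2. At E10.5 it had 4 counts early and 0 late. Among E10.5 cells, Tpi1 was at 0.59 in arterial YS HE, past the limit, and at 0.28 (-0.40 to 0.95) in plexus YS HE, within it, while Ldha passed it in plexus YS HE at 0.85 (0.64 to 1.06, 7 late and 13 early cells).

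The third clusters were compared with late HE of the same series, which they share with the comparison above. In AGM_5, 3 of 9 enzymes were higher than in AGM_4 (13.7% of 6068 genes) and 0 lower (20.4%). In YS_p1, 1 of 8 was higher than in YS_m2 (19.8% of 5362 genes) and 0 lower (18.9%). In YS_p2, 0 of 8 were higher than in YS_b3 (17.5% of 5271 genes) and 0 lower (17.4%). The sum was higher in each of the 3, by log2 ratios of 0.31 (0.26 to 0.36, runs 0.41, 0.20 and 0.30) in AGM_5, 0.23 (0.17 to 0.29, runs 0.42, 0.40 and 0.04) in YS_p1 and 0.31 (0.25 to 0.37, runs 0.31, 0.38 and 0.28) in YS_p2, and all 9 run values were above 0. The members' medians were 0.37, 0.26 and 0.37, beside -0.04, 0.06 and 0.04 over all genes. In the same clusters endothelial markers were lower, and the summed blood progenitor markers were higher, mostly through Coro1a. Of the blood progenitor markers with enough counts, 1 of 4 was higher in AGM_5, 2 of 3 in YS_p1 and 1 of 4 in YS_p2. In YS_p1, 1 was lower, and 0 were lower in AGM_5 and YS_p2. The part of either marker list in the enzyme values was not tested.

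In AGM_5 the enzymes past the limit were Gpi1 at 0.72 (0.53 to 0.92, runs 0.98, 0.59 and 0.63), Eno1 at 0.93 (0.64 to 1.23, runs 1.04, 0.86 and 0.85) and Pkm at 0.63 (0.49 to 0.77, runs 1.09, 0.35 and 0.58). With copies, Eno1 was at 0.28 and Pkm at 0.53, both under the limit, and Pkm was at 0.58 without cell 16 of AGM_4, also under it. Other enzymes passed the limit when 1 cell was left out, Pgk1 (0.49) at 0.64 without cell 21 of AGM_4 (and at the limit, 0.59, with DESeq2 size factors) and Hk2 (-0.27) at -0.89 without cell 15 of AGM_5. In YS_p1 it was Ldha, at 1312 CPM against 718 CPM in YS_m2, a log2 ratio of 0.87 (0.73 to 1.01) with runs at 1.11, 1.19 and 0.52 and 0.84 with its copies. Gpi1 (0.53) came to 0.59 without cell 17 of YS_p1 and Pkm (0.53) to 0.66 without cell 24 of YS_m2, both past the limit, as Pkm did with its copies (0.70). In YS_p2, Ldha stood at 1263 CPM and its ratio to YS_b3 was 0.18 (0.04 to 0.31), with YS_b3 at 1118 CPM. Eno1 (0.45) passed the limit there with its copies (0.60), and Hk2, at 31.4 against 0 CPM and under the limit on mean level, was at least 8.59-fold higher in YS_p2. Hk2 had 0 counts in both clusters among E10.5 cells, so this difference was not seen at that day. Among E10.5 cells alone (6 of YS_p2 and 7 of YS_b3), Gpi1 at 0.64, Tpi1 at 1.11, Eno1 at 1.07 and Pfkl at 1.23, the last from 7 and 4 counts, were past the limit. Among E10.5 cells of YS_p1 and YS_m2 (15 and 21 cells), Ldha (0.97), Gpi1 (0.68) and Pkm (0.68) were past it.

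Between the progenitors, 2 of 10 enzymes were higher in YS_p2 than in YS_p1 (16.5% of 5195 genes) and 0 lower (16.2%). They were Hk2 at 1.56 (0.29 to 3.02), from 23 counts in YS_p2 and 7 in YS_p1, and Eno1 at 0.62 (0.40 to 0.84, runs 0.19, 1.02 and 0.77). Without cell 4 of YS_p2 the Hk2 ratio was 1.03 and without cell 4 of YS_p1 it was 2.25, and the Eno1 ratio was 0.56 without cell 17 of YS_p1. Without cell 2 of YS_p1, Pfkl went from 0.51 to 1.02, and without cell 5 of YS_p1, Pgk1 went from 0.34 to 0.72. With the copies Pgk1 was at 0.77. Hk2 did not keep its direction at a matched day, since among E10.5 cells it was at 0 CPM in YS_p2 (6 cells) and at 8.99 CPM (2.92 to 20.97) in YS_p1 (15 cells). The Hk2 counts of YS_p2 came from E9 cells (63.9 CPM, 5 cells) and E9.5 cells (35.6 CPM, 9 cells). Eno1 was at 0.70 (0.40 to 1.00) among E10.5 cells, and at 0.53, within the limit, with DESeq2 size factors. The sum was 0.11 (0.05 to 0.17) higher in YS_p2, with runs at -0.11, 0.12 and 0.23.

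**Figure D3:**
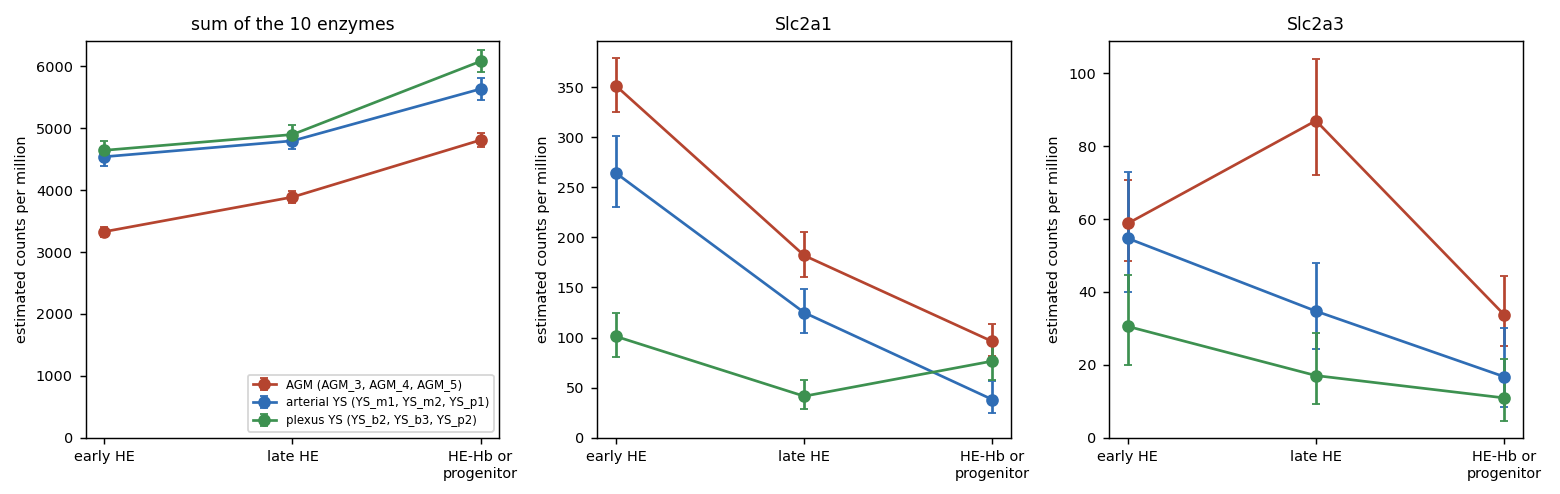
Summed level of the 10 enzymes and level of the glucose transporter genes Slc2a1 and Slc2a3 in CPM (y axes) along each series, from early HE to late HE and the third cluster (x axes). Points are clusters with 95% counting intervals. The enzyme sum ended at 4810 to 6083 CPM, while Slc2a1 ended at 38.1 to 96.1 CPM.

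The genes that bring glucose in did not follow the enzyme sum. Slc2a1, the main glucose transporter of endothelium, was at 351 CPM in AGM_3, 182 in AGM_4 and 96.1 in AGM_5. It was at 264 CPM in YS_m1, 125 in YS_m2 and 38.1 in YS_p1, and at 101 CPM in YS_b2, 41.4 in YS_b3 and 76.5 in YS_p2. Late over early, its log2 ratio was -0.95 (-1.16 to -0.74) in AGM HE, -1.08 (-1.40 to -0.76) in arterial and -1.29 (-1.91 to -0.70) in plexus YS HE. Single runs of early and late clusters overlapped in the AGM and plexus series and not in the arterial series (166 to 474 CPM in YS_m1, 110 to 152 CPM in YS_m2). The third cluster was lower still in the AGM series (-0.92) and the arterial series (-1.71), and higher in the plexus series (0.88, 0.24 to 1.54). Slc2a3, a high-affinity transporter, was at 58.8 CPM in AGM_3 and 87.0 in AGM_4, late over early 0.57 (0.18 to 0.95), the direction of the enzyme sum. It stood at 33.8 CPM in AGM_5 against 87.0 in AGM_4, a log2 ratio of -1.37 (-1.87 to -0.88), and at 10.9 to 17.1 CPM in YS_p1, YS_p2 and YS_b3. Between the sites, Slc2a1 was at 281 CPM (263 to 299) in AGM HE, 186 CPM (167 to 207) in arterial and 71.8 CPM (59.5 to 85.8) in plexus YS HE.

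Of 32 other genes of glycolysis in a fixed list, 4 of 6 with enough counts were higher in AGM HE than in arterial YS HE and 0 lower, and 4 of 5 were higher than in plexus YS HE and 0 lower, beside 34.4% and 35.9% of all genes higher, with medians of 0.64 and 0.89 beside 0.09 and 0.10. In both comparisons 2 of the 4 were the transporters given above, Slc2a1 (log2 ratios 0.59, at the limit, and 1.97) and Slc2a3 (0.70 and 1.56). The enzymes were Hk1, the housekeeping hexokinase, at 58.6 CPM in AGM HE against 27.3 and 31.7 CPM (log2 ratios 1.10 and 0.89), and the mutase Pgam1. Pgam1 was at 140 CPM against 52.8 and 80.4 CPM (1.41 and 0.80). With its copies Pgam1 was at 0.51 and 0.05. In the pentose phosphate pathway, which branches off to make NADPH and ribose, 1 of 5 measured genes was higher and 1 lower in AGM HE in both comparisons, beside 34.4% and 35.9% of all genes higher and 24.6% and 26.2% lower. Transketolase (Tkt) was at 234 CPM against 91.3 and 114 CPM, and 6-phosphogluconolactonase (Pgls) at 241 CPM against 412 and 382 CPM, log2 ratios of -0.77 and -0.66. Of 8 hypoxia factors, 2 had enough counts in these comparisons. Epas1, the endothelial hypoxia-inducible factor, was at 82.0 CPM in AGM HE, 64.6 in arterial and 14.4 CPM in plexus YS HE. Its ratio of plexus to arterial YS HE was -2.17 (-2.87 to -1.53). The other, Egln2, ran in the opposite order, at 52.0 CPM in AGM HE, 63.5 in arterial and 68.2 CPM in plexus YS HE.

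The isoform shares of Pkm also differed between the tissues. M2 (Pkm-201) made up 90.7% of Pkm in AGM_3, 91.7% in AGM_4, 92.3% in AGM_5, 61.4% in YS_m1, 70.2% in YS_m2, 61.0% in YS_p1, 69.1% in YS_b2, 70.0% in YS_b3 and 70.6% in YS_p2. M1 (Pkm-202) made up 4.76%, 3.97%, 2.40%, 17%, 12.3%, 20.7%, 12.2%, 8.62% and 13.6% in the same order. M2 was the main form in every cluster, and the lowest M1 share in the YS was above the highest in the AGM.

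Pooled, the M1 share was 4.42% (3.44 to 5.64) in AGM HE, 14.5% (12.3 to 16.9) in arterial and 10.6% (8.86 to 12.6) in plexus YS HE. Single runs gave 4.20%, 4.18% and 4.66% in AGM HE, 13%, 14.3% and 16.1% in arterial YS HE, and 12.4%, 14.2% and 7.09% in plexus YS HE, so each YS run lay above each AGM run. In single clusters the runs overlapped, from 0.783% to 7.73% in AGM_3 and AGM_4 and from 2.24% to 30.4% in the YS HE clusters. Pkm estimates that were whole within 0.01 counts were found in 13 AGM HE, 2 arterial and 3 plexus YS HE cells. There the M1 share was 0.0042% (0 to 1.5) of 244 counts in AGM HE. In plexus YS HE it was 0.028% (0 to 8.81) of 40 counts. In arterial YS HE it was 21.6% (9.83 to 38.2) of 37 counts, where 1 cell held M1 and M2 at 35.7% each. These few cells showed no difference between AGM and plexus YS HE and cannot settle it. As a level, M1 was at 19.1 CPM in AGM HE against 71.9 and 69.5 CPM, log2 ratios of -1.91 (-2.36 to -1.47) and -1.86 (-2.32 to -1.40). M2 was at 394 CPM (373 to 416) in AGM HE, 329 CPM (303 to 355) in arterial and 454 CPM (422 to 488) in plexus YS HE. The 9 other transcripts, mostly short, took 4.48% of Pkm in AGM HE, 19.5% in arterial and 19.9% in plexus YS HE.

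The copies of Pkm moved along with this split. They stood at 43.1 CPM in AGM HE, 379 in arterial and 441 CPM in plexus YS HE, most of it on Gm6560 (28.4, 285 and 373 CPM), which matches 163 of the 167 bases of the M2 exon and 110 of the M1 exon. When the copies were counted in the total, the M1 share was 4.02% (3.13 to 5.13), 8.21% (6.94 to 9.63) and 6.35% (5.27 to 7.56), and the difference of AGM HE was -4.19 percentage points against arterial and -2.34 against plexus YS HE, in place of -10.05 and -6.22. The direction was the same in both readings, and the size was smaller with the copies.

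M1 was not found in every cell. At least 1 M1 count was found in 15 of 49 AGM HE cells, 24 of 52 arterial and 19 of 49 plexus YS HE cells, from 6 of 29 cells in AGM_3 to 12 of 23 in YS_m1 and 11 of 17 in YS_p1, and M2 in 49, 43 and 42 cells of the 3 HE populations. Among cells with at least 5 Pkm counts the median M1 share was 0.00693% in AGM HE, 5.52% in arterial and 1.98% in plexus YS HE, and the highest cell had 61.3%, 88.8% and 77.9%. One cell held 24.1%, 20.1% and 13% of all M1 counts of these populations. The pooled share was thus a mean over many cells near 0 and a few far above it. Without cell 23 of YS_m1 the difference between AGM and arterial YS HE was -7.56 points, that between plexus and arterial YS HE -1.34 points in place of -3.83, and that between late and early arterial YS HE turned from -4.73 to 0.65. In AGM HE the late minus early difference went from -0.79 to 1.01 points without cell 29 of AGM_3.

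The third clusters gave no common direction for M1. AGM_5 was 1.58 points below AGM_4 in the M1 share, YS_p1 was 8.41 points above YS_m2 and YS_p2 was 5.02 points above YS_b3. In YS_p2, 52.1% of the M1 counts came from cell 1, without which the difference to YS_b3 was -1.39 points. For YS_p1 the value stayed between 5.69 and 10.96 points when single cells were left out, and its runs were at 26.8%, 19.6% and 17% against 16.9%, 17.9% and 4.10% in YS_m2.

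**Figure D4:**
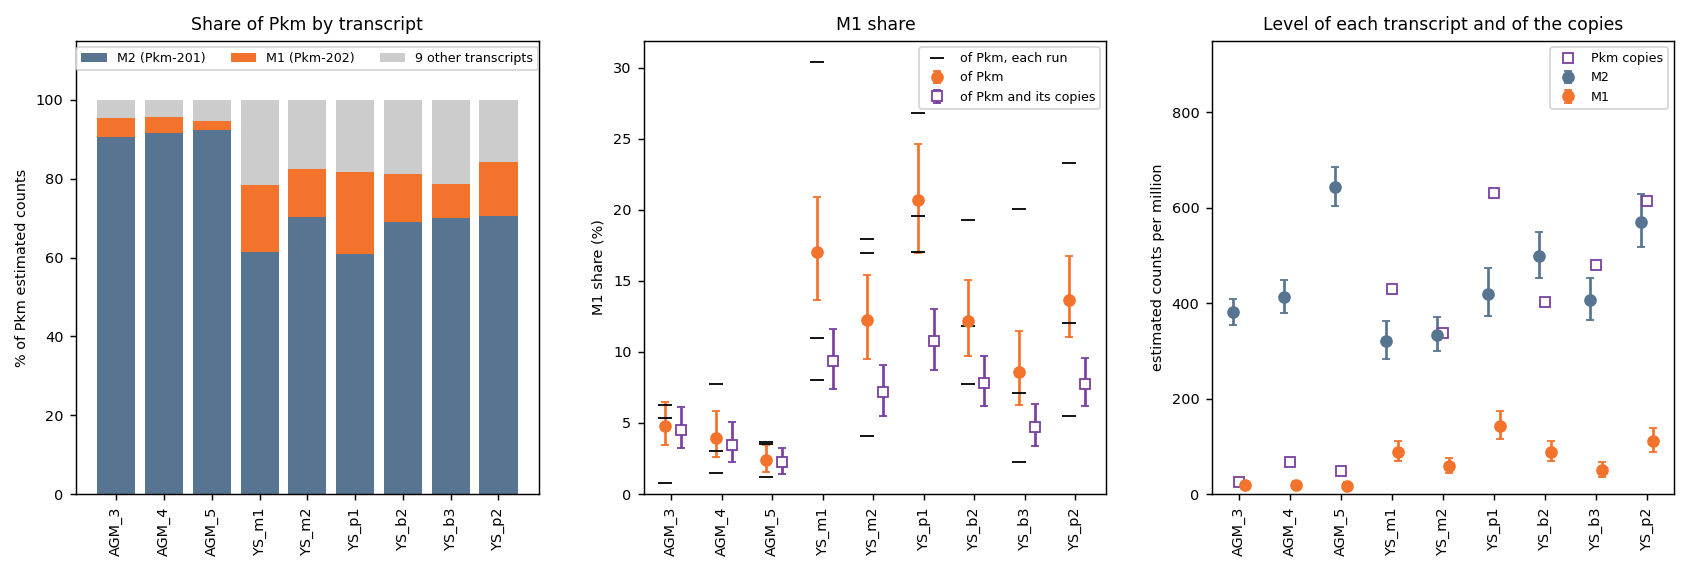
Pkm in 9 clusters (x axes): share of Pkm estimated counts on M1, M2 and the other transcripts (left, %), M1 share of Pkm and of Pkm with its copies (middle, %, with 95% intervals and single runs as dashes), and levels of M1, M2 and the copies in CPM (right). M1 made up 2.40% to 4.76% in AGM clusters and 8.62% to 20.7% in YS clusters, where the copies also stood higher.

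Genes known to steer the choice between these exons were measured as a fixed list of 8, of which 4 had enough counts. Of these, 3 were higher in AGM HE than in arterial YS HE and 2 higher than in plexus YS HE, with 0 lower in either, beside 34.4% and 35.9% of all genes higher. Hnrnpa1, which keeps the M1 exon out, was at 863 CPM in AGM HE, 188 in arterial and 124 CPM in plexus YS HE, log2 ratios of 2.20 (2.04 to 2.36) and 2.80 (2.60 to 3.01), or 1.00 and 1.31 with its 16 copies. Srsf3, which favours the M2 exon, was at 147, 44.3 and 38.7 CPM, log2 ratios of 1.73 and 1.93, or 0.68 and 0.82 with copies. Hnrnpa2b1 was at 1083, 722 and 811 CPM, the first ratio at the limit (0.59). Ptbp1, another repressor of the M1 exon, was at 383 CPM in AGM HE and 296 CPM in both YS populations, a ratio of 0.37 that did not pass the limit.

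Beyond Pkm, the question was whether the enzymes used other annotated transcripts in the 3 sites. A call was an isoform whose share of its gene differed by more than 0.1, with at least 200 summed counts in each group. It was met by 4 of 6 measured enzymes between AGM and arterial YS HE (48.8% of 1088 genes) and by 4 of 6 between AGM and plexus YS HE (45.0% of 957 genes). Between plexus and arterial YS HE it was met by 0 of 7 (7.55% of 941 genes). The 4 enzymes were Gapdh, Eno1, Pkm and Ldha.

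For Gapdh, the noncoding transcript Gapdh-204 (560 bases) made up 6.49% (5.48 to 7.58) in AGM HE, 32.8% (30.2 to 35.5) in arterial and 29.5% (26.7 to 32.3) in plexus YS HE. The coding Gapdh-207 (471 bases) made up 79.4%, 57.6% and 59.1%. For Eno1, the full-length Eno1-202 (2027 bases) had a smaller share in AGM HE, 54.8% (49.5 to 60.0) against 68.9% and 68.7%. There, retained-intron transcripts of Eno1 added 8.14% (Eno1-207) and 10.48% (Eno1-204).

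For Ldha, the short transcripts Ldha-208 (912 bases) and Ldha-203 (934 bases) made up 6.38% each in AGM HE. In arterial YS HE they made up 27% and 24.3%, and in plexus YS HE 27.4% and 26.8%. Ldha-201, Ldha-210 and Ldha-202 (1588 to 1815 bases) were at 19.3%, 19.3% and 21.5% in AGM HE against 5.53%, 5.53% and 12.7% in arterial YS HE. These transcripts were not separated by the reads in many cells: Ldha-201 and Ldha-210 had estimates equal within 0.01 counts in 172 of 172 cells with a count, and Ldha-203 and Ldha-208 in 190 of 199 cells. For M1 and M2 of Pkm such even splits were found in 6 of 201 cells with a count. Equal M1 and M2 estimates above 0.01 counts, of any total, were found in 10 of 52 arterial YS HE cells. None were found in AGM HE, plexus YS HE or the third clusters, so these splits lay in the HE population with the highest M1 share.

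Pgk1 had under 200 counts in the YS populations and made no call. Its coding Pgk1-201 (1825 bases) made up 75.8% (72.3 to 79.0) in AGM HE, 34.9% (27.6 to 42.4) in arterial and 29.7% (21.2 to 38.5) in plexus YS HE. The retained-intron Pgk1-202 (731 bases) made up 1.81%, 34.1% and 42.3%. The same direction was seen in each cluster of the tissues, as it was for Gapdh-204 and Ldha-208.

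Aldoa and Gpi1 had the same makeup everywhere to within 0.1. Aldoa-201, the coding form, made up 48.0%, 48.1% and 47.9% in AGM, arterial and plexus YS HE, the retained-intron Aldoa-206 25.2%, 27.4% and 24.8%, and Aldoa-205 20.2%, 19.3% and 21.5%. Most Gpi1 counts fell on a retained-intron transcript, Gpi1-203 (3195 bases), at 90.3%, 93.9% and 93.7%. For Gpi1 the level above is therefore mostly that of a transcript annotated as not coding. Most Pfkl counts fell on Pfkl-205, annotated for nonsense-mediated decay (60%, 63.2% and 95.8% from 15, 34 and 24 counts). Tpi1-203 (802 bases) made up 81.2%, 91.4% and 89.4% of Tpi1, and Hk2-201 97.4% and 82.4% of Hk2 in AGM and arterial YS HE.

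**Figure D5:**
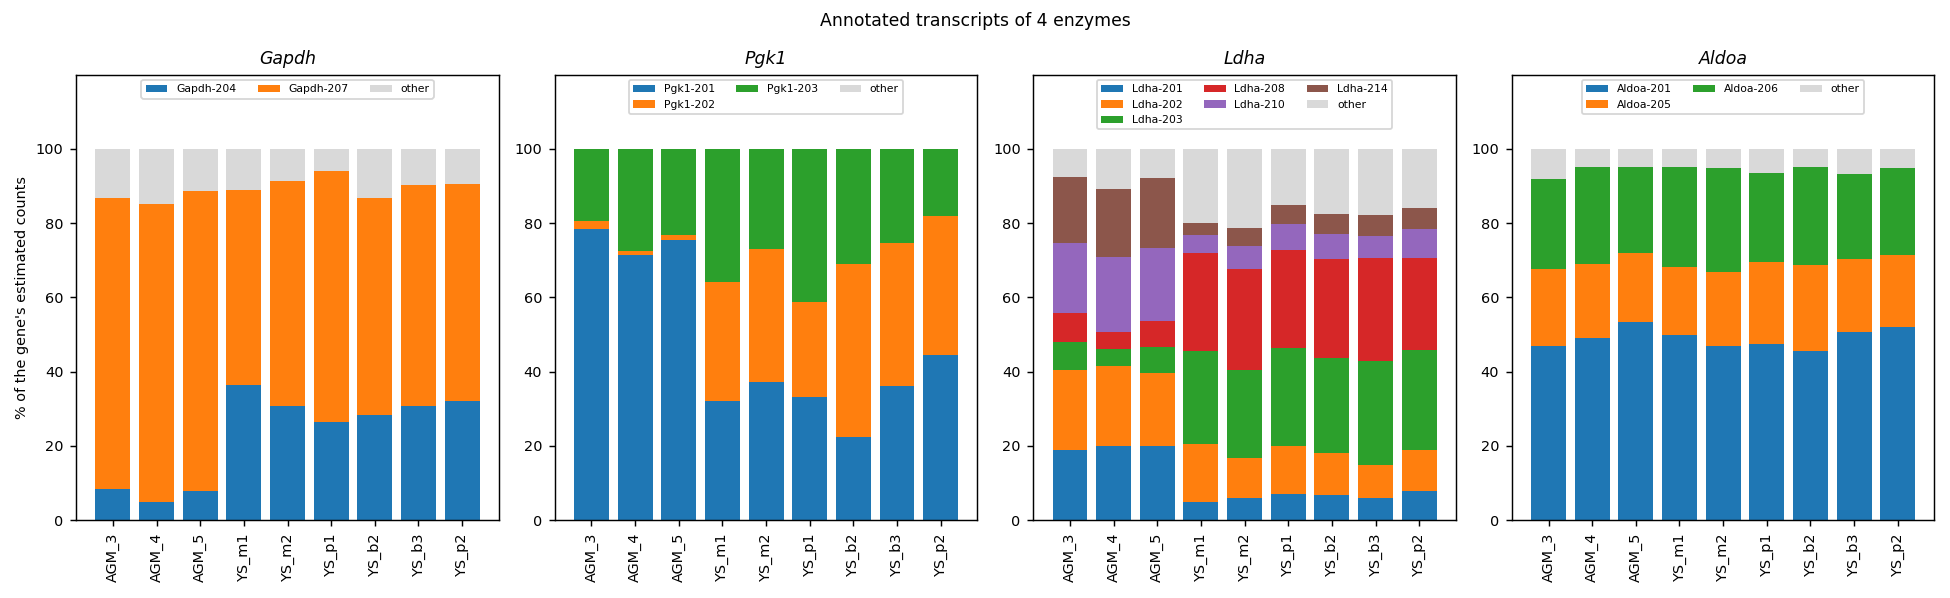
Share of each gene's estimated counts (y axis, %) on its annotated transcripts in 9 clusters (x axes) for Gapdh, Pgk1, Ldha and Aldoa. The AGM clusters stood apart for Gapdh-204, Pgk1-202, Ldha-203 and Ldha-208, and Aldoa was alike in all 9.

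The length of the annotated transcripts moved with these shares. Transcripts of at least 1000 bases took 68.7% of the enzymes' counts in AGM HE, 58.7% in arterial and 55.6% in plexus YS HE, and 44.6%, 37.1% and 37.1% of the counts of all genes. Whether the shorter transcripts were cut molecules, or reads placed on short annotated forms, was not tested.

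Across the 9 clusters, the enzymes did not all vary together. Over these 9 points, which share library projects and depth by tissue, Pgk1 ran against Pfkl (Pearson r = -0.85), Tpi1 (-0.82) and Eno1 (-0.79). With the copies of each gene added, these values turned to 0.73, 0.87 and 0.96. Among 3259 genes with at least 50 CPM on average over the clusters, those most like the enzyme sum were Sap18b (r = 0.98), Vamp8 (0.96), Eif5a (0.96), Gm13436 (0.96) and Rpl14-ps1 (0.96). Those most like Pkm were ENSMUSG00000134201 (0.95), H2ac10 (0.94), H2ac12 (0.93), Irag2 (0.91) and H2ac22 (0.90). When YS cells of E10.5 alone were taken, arterial YS HE (35 cells) had an enzyme sum of 4519 CPM (4407 to 4634) and plexus YS HE (20 cells) 4490 CPM (4347 to 4636), and the progenitors stayed above them at 5926 CPM (5726 to 6132, 15 cells) in YS_p1 and 6379 CPM (6059 to 6708, 6 cells) in YS_p2.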

How the data were processed

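Single-cell cDNA made by Smart-seq2 from sorted AGM and YS cells was sequenced by the authors on a nanopore instrument in 3 runs. They aligned trimmed reads with minimap2 2.26 to the mouse transcripts of GENCODE release 37, kept at most 10 alignments per read, and deposited estimated counts per transcript and cell from NanoCount, which need not be whole. A second deposited table, of TPM, was not used.

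Cells were grouped by the labels, and those under 17595 estimated counts were left out. Totals of the used cells ran from 18131 to 125339. Counts were summed over transcripts, cells and groups and divided by the summed totals (CPM). Intervals were exact Poisson or binomial (95%), ratios were conditional binomial, and a level of 0 was given a limit of 3 counts. Since no replicate was labelled, no test was made, and values of cells and runs may be technical. Copies were found with minimap2 2.31 in GENCODE M21. The ratio script was tested on simulated data. Every enzyme, each of its transcripts with at least 10% of the gene in a cluster, and every Pkm transcript were eligible to be named; genes most like a member were taken by correlation over clusters. The members and lists were chosen with earlier results of these data known. Python 3.11.15, numpy 2.4.6, scipy 1.17.1, DESeq2 1.42.0 and edgeR 4.0.16 (size and TMM factors as alternatives) were used.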

Additional observations from a re-analysis of the deposited data

How the results depend on the processing

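Hk2 and Pfkl were near the floor of detection, and M1 rests on few cells. No paired analysis was possible because the replicate numbers only count cells within a cluster and no result comes from a test. Alternatives were other library size limits, a depth window of 30000 to 60000, single runs, other scalings, copies added, and cells left out in turn. Transcripts of at least 1000 bases, M1 shares with copies in the total, E10.5 alone and other scalings of the cluster order were chosen after seeing the data. So were the alternatives for single enzymes past 1.5-fold. Among these Pgk1 reversed with copies, to -0.68 against arterial and -0.71 against plexus YS HE, and Tpi1 reversed in run 2 between late and early plexus YS HE (-0.27). The causes were not tested.

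The summed log2 ratio moved by more than the spread over runs in 24 of 141 alternatives. Here and for the M1 share, that spread was the standard deviation of the 3 single-run values. These values were themselves among the alternatives, and a wider spread left fewer alternatives counted as moved. AGM against arterial YS HE (-0.40) was -0.24 in run 2, -0.17 with DESeq2 factors and -0.73 with copies. AGM against plexus YS HE (-0.42) was -0.54 in run 2, -0.23 with DESeq2 factors, -0.54 with TMM factors and -0.76 with copies. Plexus against arterial YS HE (0.03) was 0.29 in run 2. Late against early AGM HE (0.22) was -0.032 in run 1, and arterial YS HE (0.08) 0.40 in run 2. Plexus YS HE (0.08) was 0.18 in the depth window, 0.14 in run 3, 0.011 with DESeq2 factors, -0.002 with TMM factors, 0.18 with copies, -0.048 on transcripts of at least 1000 bases, and 0.045 to 0.13 with single cells left out. AGM_5 against AGM_4 (0.31) was 0.20 in run 2. YS_p2 against YS_b3 (0.31) was 0.24 in the depth window, 0.38 in run 2, 0.38 with copies, 0.37 on transcripts of at least 1000 bases, and 0.26 to 0.34 without single cells. YS_p2 against YS_p1 (0.11) was -0.11 in run 1.

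The M1 share difference moved in 25 of 121 alternatives. For AGM against arterial YS HE (-10.05 points) it was -7.44 in the depth window, -11.48 in run 3, -11.75 as a mean of cells, -13.34 as a share of M1 and M2 alone, -4.19 with copies, and -11.05 to -7.56 without single cells. Plexus against arterial YS HE was -9.05 in run 3. Late against early was 6.95 in run 2 for AGM HE, -26.32 in run 3 for arterial and 12.34 in run 1 for plexus YS HE. AGM_5 against AGM_4 was -6.80 in the depth window and 2.05 in run 1, and YS_p1 against YS_m2 1.65 in run 2. YS_p2 against YS_b3 (5.02) was 3.12 with the size limit on the log scale, 2.19 in the depth window, 3.27 and 3.28 in runs 1 and 3, 1.85 as a mean of cells, 3.03 with copies, and -1.39 to 7.93 without single cells. YS_p2 against YS_p1 was -0.62 in the depth window, -11.48 in run 3, -12.43 as a mean of cells, and -13.45 to -4.33 without single cells.

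Enzymes past 1.5-fold between AGM and arterial YS HE numbered 3 in run 1 in place of 5. Between plexus and arterial YS HE they numbered 2 in the depth window and 1 in each run, and 1 enzyme passed the isoform limit in run 2, in place of 0. The share of all genes past 1.5-fold there was 39.9% with genes of at least 5 CPM.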
